A study of Mus musculus with 12 samples.

Results

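The 9 genes described here are Parp1, Parp8, Parp9, Parp10, Parp11, Parp12, Parp14, Zc3hav1 and Dtx3l, that is, 8 members of the ADP-ribosyltransferase (PARP) family and the ubiquitin ligase that partners Parp9. They were taken by symbol and found in each of the 3 tables used, 9 of the 24351 genes listed in any of them. The data are RNA-seq comparisons of mouse bone marrow-derived macrophages treated with monophosphoryl lipid A (MPLA), a lipid A derivative of low toxicity that signals through Toll-like receptor 4. The 12 libraries fall into 4 groups of 3, namely 4 h of MPLA, 24 h of MPLA, 3 d after the end of priming, and controls that received none.

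Every group came from C57BL/6 marrow of males aged 8 to 16 weeks, and the cells were cultured over 7 days with 10% fetal bovine serum and M-CSF, the macrophage growth factor, at 10 ng/mL, which was not withdrawn later. The protocol also names MyD88-/- and TRIF-/- males, but no library used here is labelled as coming from them. The duration of priming in the 3 d group, the harvest time of the controls and the MPLA dose are not stated, nor is it stated that replicates are separate mice or dishes, so the p-values measure a spread between libraries that may be technical. The authors' deposited tables hold 1 comparison with the same 3 controls per time point and no value per library, so neither the level in each library nor its depth is known here. In bulk RNA, fewer cells of a type and less RNA per cell cannot be told apart.

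PARP enzymes take ADP-ribose from NAD and attach it to proteins or nucleic acids. Parp1 builds long chains at DNA breaks, whereas most of the other members attach single units, and several of those are known as interferon-stimulated genes with antiviral activity. Macrophages make interferon beta after Toll-like receptor 4 signalling, and its receptor acts through STAT and IRF factors on such genes.

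In the authors' deposited tables, 8 of the 9 genes were higher than in the controls at all 3 times, and Parp1 was lower during MPLA. At 4 h the 8 genes stood between 5.15-fold (Zc3hav1) and 23.6-fold (Parp14) above control in the authors' deposited table, at 24 h between 2.35-fold (Zc3hav1) and 11.7-fold (Parp11), and at 3 d between 1.44-fold (Parp8) and 3.49-fold (Parp11). A gene was called at a DESeq2 adjusted p under 0.05. By that rule 8 members rose and 1 fell at 4 h, where 31.8% of all tested genes were higher and 31.0% lower in the authors' deposited table. The count was again 8 and 1 at 24 h, where 32.4% of tested genes were higher and 32.2% lower in the authors' deposited table. After 3 d it was 8 and 0, against 29.5% higher and 25.8% lower among the tested genes of the authors' deposited table. Taking the 9 genes together, the median log2 change came to 3.57 (4 h), 2.26 (24 h) and 1.18 (3 d) in the authors' deposited tables, beside -0.04, -0.05 and -0.02 for all tested genes.

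The edgeR columns of the authors' deposited tables placed the members lower by a near-constant amount, 0.93 to 0.94 on the log2 scale at 4 h, 0.41 at 24 h and 0.12 to 0.13 at 3 d. The median of all tested genes moved by much the same, 0.93, 0.41 and 0.13. With edgeR 13.5%, 16.2% and 15.5% of the listed genes were called higher and 50.1%, 41.8% and 27.7% lower at 4 h, 24 h and 3 d in the authors' deposited tables. The members' calls did not turn with these columns, and 8 were higher at each time. Parp1 was lower at 4 h and 24 h and called neither way at 3 d.

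**Figure D1:**
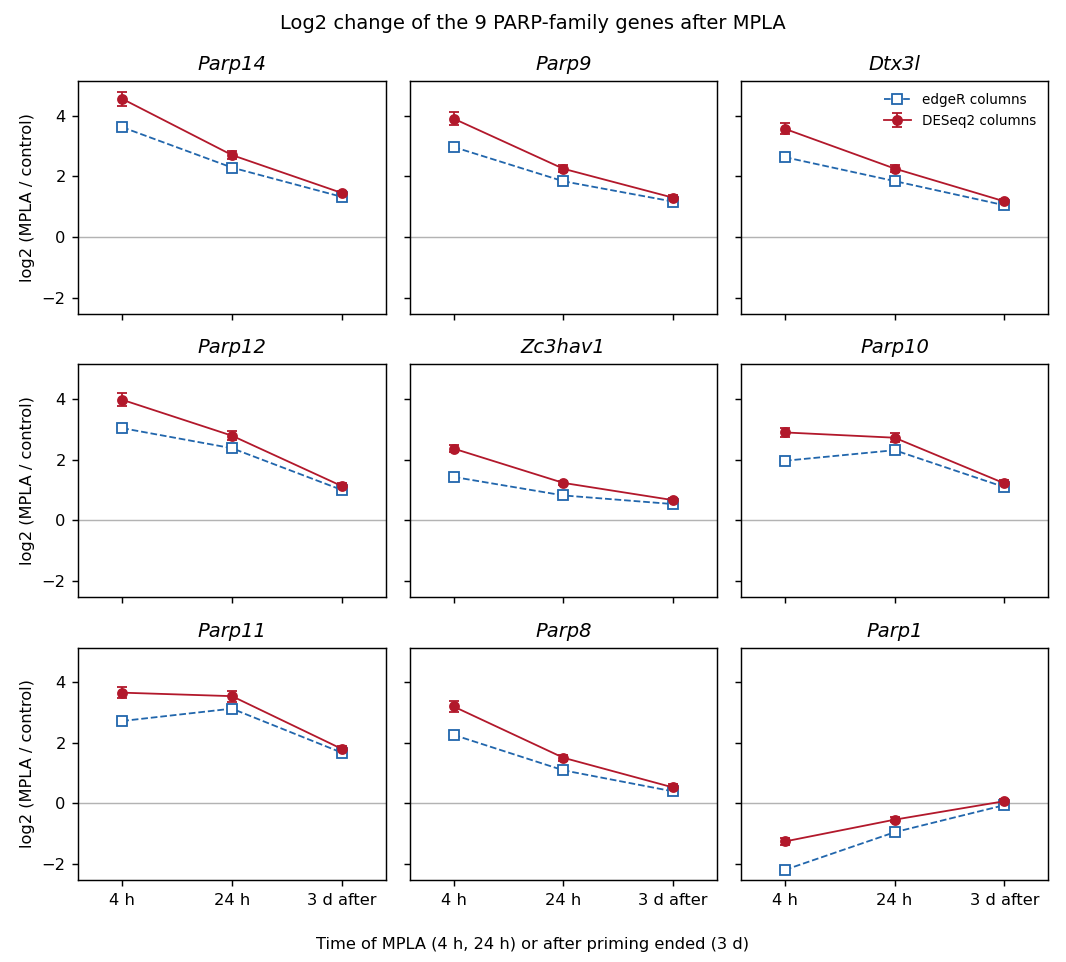
Log2 change of each gene, MPLA over control, at 4 h and 24 h of MPLA and 3 d after priming ended. Filled circles are the DESeq2 columns with their 95% intervals (at their widest where the p-value is stored as 0), open squares the edgeR columns; 8 genes lie above 0 at every time, while Parp1 lies below 0 at 4 h and 24 h.

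Errors were computed here, because the authors' deposited tables give none. A Wald standard error (SE) follows from each DESeq2 log2 change and its p-value. Where the p-value is stored as 0, only an upper bound of the SE follows, and this held for 8 members at 4 h, 6 at 24 h and 1 at 3 d. The SE or its bound was at most 0.12, 0.09 and 0.06 on the log2 scale at 4 h, 24 h and 3 d, beside a median over all tested genes of 0.18, 0.13 and 0.09. These errors treat the comparisons 1 at a time. The 3 deposited tables were scaled separately and share their controls, so changes over time are given side by side and were not tested.

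Among all tested genes the 8 that rose ranked high. Each lay above 90.0% to 97.4% of tested genes at 4 h, 88.0% to 97.2% at 24 h and 85.8% to 97.5% at 3 d. Parp1 lay above 20.4%, 32.4% and 58.5% of them. The rank order within the group changed, since Parp14 led at 4 h and Parp11 at 24 h and 3 d.

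**Figure D2:**
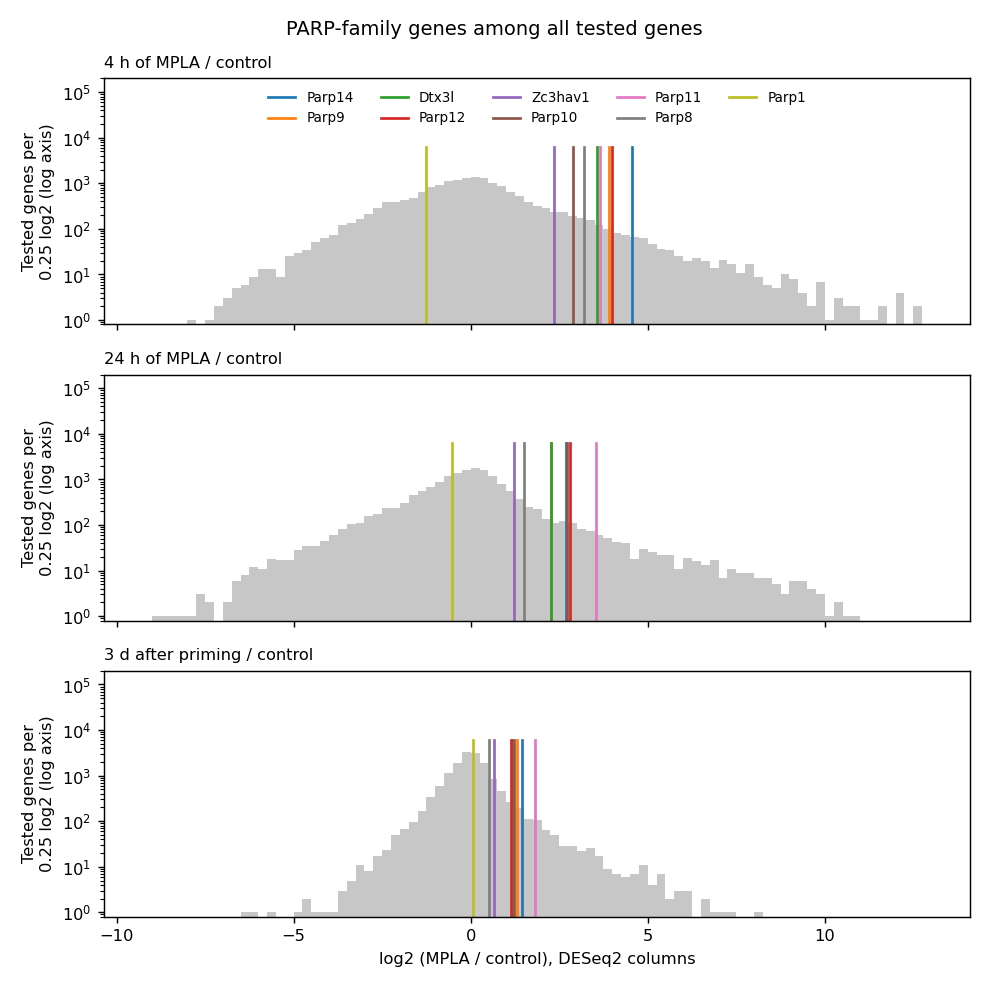
Distribution of the log2 change of all tested genes (grey bars, counts on a log axis) in each comparison, with a vertical line for each of the 9 genes. At 4 h the lines of the 8 induced genes stand between 2.37 and 4.56 and that of Parp1 at -1.25.

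Promoter windows show what sequence lies at the start of these genes. RefSeq windows on GRCm38.p6, the build named mm10 in the submitters' processing notes, run from 250 bases before to 50 bases after a start, and 7 windows matched 6 of the 9 members (Parp1, Parp8, Parp11 with 2, Parp12, Dtx3l and Zc3hav1). Both strands were searched for the core of the interferon-stimulated response element, which is GAAA, any 2 bases and GAAA again, TTCNNNGAA, the STAT site, and the NF-kappaB site. Of all 32851 windows of that length, 3.44% held the response element core, 8.30% the STAT site and 8.46% the NF-kappaB site. The Parp11 window that begins at chr6:127453377 held no match. Among the members, matches fell in 2 windows, the Parp11 window that begins at chr6:127446590 and that of Zc3hav1. These are printed 5′ to 3′ with the matches in capitals, and beside them the Dtx3l window, which has no match and is shown because it lies inside the annotated Parp9 gene on the opposite strand.
Parp11, chr6:127446590-127446889, plus strand: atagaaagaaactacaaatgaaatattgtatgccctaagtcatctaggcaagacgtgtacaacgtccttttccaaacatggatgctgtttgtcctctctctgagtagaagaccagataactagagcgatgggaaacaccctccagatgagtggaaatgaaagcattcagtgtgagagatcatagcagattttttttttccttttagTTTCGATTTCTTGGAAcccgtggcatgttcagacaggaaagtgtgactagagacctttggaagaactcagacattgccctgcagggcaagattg
Zc3hav1, chr6:38354554-38354853, minus strand: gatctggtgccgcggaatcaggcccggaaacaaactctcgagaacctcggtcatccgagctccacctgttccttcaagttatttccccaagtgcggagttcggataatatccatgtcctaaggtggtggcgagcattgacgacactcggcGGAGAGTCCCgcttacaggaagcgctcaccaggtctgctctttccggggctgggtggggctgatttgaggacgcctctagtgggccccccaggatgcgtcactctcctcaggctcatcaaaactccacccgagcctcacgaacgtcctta
Dtx3l, chr16:35938978-35939277, minus strand: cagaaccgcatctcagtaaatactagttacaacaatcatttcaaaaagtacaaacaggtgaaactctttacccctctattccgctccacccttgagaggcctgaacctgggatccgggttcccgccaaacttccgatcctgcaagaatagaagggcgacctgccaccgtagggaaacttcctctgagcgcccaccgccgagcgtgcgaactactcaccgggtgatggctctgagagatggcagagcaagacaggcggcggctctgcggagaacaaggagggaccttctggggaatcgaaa
In the printed Parp11 window the response element core, on the reverse strand, covers positions -44 to -35 from that start, and the STAT site at -37 to -29 overlaps it. In the Zc3hav1 window the NF-kappaB match covers positions -100 to -91 on the reverse strand. A match is a description of letters, and no binding was measured.

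Parp1 (ENSMUSG00000026496, chromosome 1, 180568924 to 180601254, plus strand) encodes the main DNA damage-activated poly(ADP-ribose) polymerase. At 4 h of MPLA it was 2.38-fold lower than in control cells in the authors' deposited table (log2 change -1.25 ± 0.06, SE, DESeq2 adjusted p = 6.39e-110). At 24 h the authors' deposited table gave a log2 change of -0.53 ± 0.04 and an adjusted p of 1.42e-32. The value for 3 d in the authors' deposited table was 0.08 ± 0.04 (95% interval -0.0045 to 0.15, adjusted p = 0.106) and did not pass the test, while edgeR gave -0.055 (adjusted p = 0.261). The direction of Parp1 at 3 d thus differed between the columns, and neither value was called.

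Parp14, Parp9 and Dtx3l lie together on chromosome 16. Parp14 (ENSMUSG00000034422, 35832874 to 35871544, minus strand) encodes a large mono-ADP-ribosyltransferase with macrodomains, known in mouse lymphocytes as a cofactor of Stat6. Parp9 (ENSMUSG00000022906, 35938470 to 35972605, plus strand) encodes a macrodomain protein that forms a complex with the product of Dtx3l (ENSMUSG00000049502, 35926511 to 35939151, minus strand), a ubiquitin ligase of the Deltex group. The annotated genes Parp9 and Dtx3l start head to head and overlap by 682 bases, and 55.0 kb separate Dtx3l from Parp14.

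Parp14 had the highest value of the 9 at 4 h, a log2 change of 4.56 (SE at most 0.12) or 23.6-fold in the authors' deposited table. Its log2 change was 2.70 (SE at most 0.07) at 24 h and 1.46 (SE at most 0.04) at 3 d in the authors' deposited tables, or 6.52-fold and 2.74-fold. It was the single member with a DESeq2 adjusted p stored as 0 at all 3 times. Parp9 was 15.0-fold higher at 4 h, with log2 changes of 3.91, 2.25 and 1.30 at 4 h, 24 h and 3 d in the authors' deposited tables. Dtx3l followed it closely with 3.57, 2.26 and 1.18. At 3 d the 95% intervals of Parp9 (1.22 to 1.37) and Dtx3l (1.10 to 1.25) overlapped. At 4 h the SEs are upper bounds, so whether the intervals overlap is not known. The SEs at 24 h are upper bounds as well, but the values of Parp9 and Dtx3l nearly coincided (2.254 and 2.259). Because 9.40% of the exonic bases of Parp9 and 8.00% of those of Dtx3l lie in exons of the other gene and the sources do not say whether counting used the strand that the library kit marks, reads of the overlap cannot be assigned here to one gene.

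The 6 protein-coding neighbours within 100 kb of this group, chosen by position, stood below its 3 members at each of the 3 times. At 4 h the authors' deposited table gave log2 changes of 2.36 for Dirc2 and 1.33 for Hspbap1 on the Parp14 side. On the Parp9 side it gave 0.78 for Kpna1, -1.13 for Wdr5b, 0.04 for Fam162a (not called) and 0.53 for Ccdc58. Dirc2, Hspbap1, Kpna1 and Ccdc58 were thus called higher at 4 h and Wdr5b lower, where 31.8% of all tested genes were higher and 31.0% lower. With edgeR the 4 h values of Kpna1 (-0.16), Ccdc58 (-0.41) and Fam162a (-0.90) were below 0 in the authors' deposited table. At 24 h Hspbap1 (0.79), Kpna1 (0.62), Fam162a (0.43) and Dirc2 (0.17) were called higher, Wdr5b (-0.49) lower, and Ccdc58 (0.0021) was not called. With edgeR Dirc2 stood at -0.25 at 24 h. By 3 d all 6 neighbours lay between -0.87 (Wdr5b) and 0.34 (Kpna1), below the 1.18 of Dtx3l, the lowest of the 3 members.

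**Figure D3:**
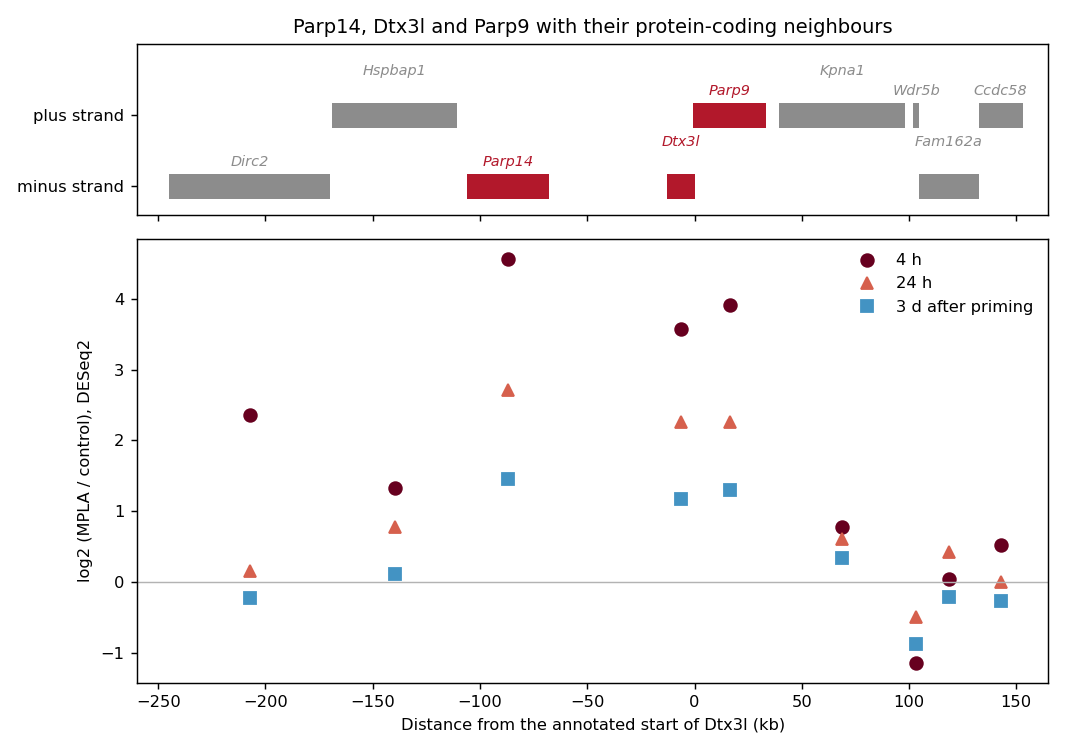
Upper panel, the annotated protein-coding genes around Dtx3l by strand, with the 3 members in red and neighbours in grey. Lower panel, the log2 change of each gene, MPLA over control, plotted at the gene's middle; Parp14, Dtx3l and Parp9 stand above their neighbours at each of the 3 times.

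Zc3hav1 and Parp12 carry CCCH zinc fingers and lie on chromosome 6. Zc3hav1 (ENSMUSG00000029826, 38305286 to 38354603, minus strand) encodes the zinc finger antiviral protein ZAP, which binds CpG-rich viral RNA and whose PARP domain is inactive. Parp12 (ENSMUSG00000038507, 39086410 to 39118349, minus strand) encodes an active mono-ADP-ribosyltransferase that restricts RNA viruses. Parp12 was 15.7-fold higher at 4 h in the authors' deposited table (log2 change 3.98, SE at most 0.11). Its log2 change was 2.79 at 24 h and 1.13 ± 0.04 at 3 d in the authors' deposited tables. Zc3hav1 had the lowest log2 change of the 8 induced genes at 4 h and 24 h, 2.37 (SE at most 0.06) and 1.23 ± 0.04 in the authors' deposited tables. At 3 d it stood at 0.66 ± 0.04 (adjusted p = 1.20e-77), or 1.58-fold, which is below a 2-fold change.

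Parp10, Parp11 and Parp8 are further enzymes of the mono-ADP-ribosylating kind. Parp10 (ENSMUSG00000063268, chromosome 15, 76231174 to 76243441, minus strand) was first described as a partner of Myc. Parp11 (ENSMUSG00000037997, chromosome 6, 127446840 to 127494261, plus strand) has a WWE domain and is known for a role at the nuclear envelope of spermatids in mouse. The product of Parp8 (ENSMUSG00000021725, chromosome 13, 116854820 to 117025537, minus strand) is little characterized. Of the exonic bases of Parp10, 4.80% lie in exons of Plec on the same strand, and 3.59% of its windows of 50 bases occur in transcripts of other genes. For the other 8 members that share was at most 1.20%.

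Parp11 and Parp10 kept the largest share of their 4 h log2 change among the 8 induced genes, at 24 h and at 3 d. Parp11 was 12.6-fold higher at 4 h and 11.7-fold at 24 h in the authors' deposited tables, with log2 changes of 3.66 (SE at most 0.10) and 3.54 (SE at most 0.09), and at 3 d it kept the highest value of the 9, 1.80 ± 0.05 or 3.49-fold. Parp10 had log2 changes of 2.90, 2.72 and 1.22 ± 0.06 at 4 h, 24 h and 3 d in the authors' deposited tables. The order of these times depended on the scaling. With edgeR both genes stood higher at 24 h than at 4 h in the authors' deposited tables, 3.13 and 2.72 for Parp11 and 2.31 and 1.96 for Parp10. The other 6 induced genes stood lower at 24 h than at 4 h in both sets of columns.

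Parp8 lay at the other end. Its log2 change was 3.20 (SE at most 0.09) at 4 h, 1.51 ± 0.05 at 24 h and 0.53 ± 0.05 at 3 d in the authors' deposited tables, or 9.20-fold, 2.85-fold and 1.44-fold. The log2 change at 3 d was 16.6% of that at 4 h for Parp8, 28.1% for Zc3hav1, 28.4% for Parp12, 31.9% for Parp14, 33.0% for Dtx3l, 33.2% for Parp9, 42.1% for Parp10 and 49.3% for Parp11. With edgeR the same shares ran between 17.7% for Parp8 and 61.6% for Parp11, again with Parp10 next to Parp11 at 55.7%.

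Genes with the most similar course were found by the Euclidean distance over the 3 log2 changes, among 12574 protein-coding genes tested at all times. Those nearest to Parp9 were Eif2ak2 (distance 0.13), which encodes the RNA-activated kinase PKR, Nfkb2 (0.19) and Dtx3l (0.36). Parp14 was nearest to Slfn5 (0.08), Gm6377 and Fnbp1l (both 0.19), and Dtx3l to Ccdc86 (0.18), Gm5431 (0.21) and Pgs1 (0.24). Nearest to Parp12 were Gvin1 (0.04), Ifi203 (0.15) and Nod1 (0.18), the last a sensor of bacterial peptidoglycan. For Parp11 they were Oas1a (0.36), an oligoadenylate synthetase, Gfi1b (0.37) and Rgl1 (0.39), and for Parp10 Sh3bp4 (0.09), Lgals9 (0.17) and Epsti1 (0.18). Among the 3 nearest to Parp8 were Trafd1 (0.19) and Klf6 (0.21), among those nearest to Zc3hav1 were Fam53c (0.09) and 9930111J21Rik1 (0.11), and Parp1 had Ehbp1 (0.06), Fancg (0.09) and Plxnb2 (0.11). Among the members themselves Parp9 and Dtx3l formed the closest pair, Dtx3l being the third nearest gene to Parp9 and Parp9 the seventh nearest to Dtx3l. The 3 comparisons share their controls, so these distances describe the tables and carry no test.

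Other genes of ADP-ribosylation did not move as a block. Of the 8 remaining PARP enzymes on the list, 5 rose and 3 fell at 4 h, 5 and 2 at 24 h, and 2 and 0 at 3 d in the authors' deposited tables, with medians of 0.39, 0.23 and 0.10. With edgeR the counts were 3 and 5, 2 and 6, and 2 and 2. Tiparp, a target of the aryl hydrocarbon receptor, had the highest value at 4 h (3.76) and 24 h (2.08), and Parp3, which acts in DNA break repair, stood at 2.03, 1.74 and 1.05 in the authors' deposited tables. Parp16, an enzyme of the endoplasmic reticulum, was lowest at 4 h (-4.05 ± 0.57) and 24 h (-0.62), followed by the repair enzyme Parp2 (-0.86 and -0.16). Tnks2, a tankyrase, stood at 0.28 at 3 d in the authors' deposited table.

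A further list held 8 genes of the ADP-ribose hydrolase and macrodomain families (7 tested at 24 h and 3 d). Of these, 3 rose and 2 fell at 4 h, 3 and 3 at 24 h, and 2 and 3 at 3 d in the authors' deposited tables. With edgeR it was 2 and 5, 1 and 4, and 1 and 4. Adprh, which cleaves ADP-ribose from arginine, had log2 changes of 1.70, 1.29 and 0.60, and Macrod1, a mitochondrial macrodomain hydrolase, was 10.9-fold lower at 24 h (-3.44 ± 0.23) and stood at -1.08 at 3 d in the authors' deposited tables. At 4 h Macrod1 was not called with DESeq2 (-0.05, adjusted p = 0.781) and was called lower with edgeR (-0.99). Adprm rose at 4 h (1.15) and 24 h (0.54) and fell at 3 d (-0.22). With edgeR it stood at 0.22 at 4 h and was not called at 24 h (0.13, adjusted p = 0.0756). Oard1 fell at all times (-0.85, -0.59 and -0.58) and Adprhl2 at 4 h (-0.28) and 24 h (-0.25) in the authors' deposited tables. Parg, the main poly(ADP-ribose) hydrolase, stood at 0.39, 0.32 and 0.13, with a DESeq2 adjusted p of 0.0389 at 3 d. With edgeR it was called lower at 4 h (-0.55) and not called at 24 h (-0.09) or 3 d (-0.0030).

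The 9 readers and repair partners of Parp1 were split, with 5 higher and 4 lower at 4 h, 4 and 3 at 24 h, and 6 and 1 at 3 d in the authors' deposited tables. With edgeR the counts were 0 and 7, 2 and 5, and 3 and 2. Xrcc1, the scaffold of single-strand break repair, fell at 4 h (-1.84 ± 0.11) and 24 h (-0.43), as did Aplf (-2.20 and -1.02), in the authors' deposited tables. At 3 d Xrcc1 was higher (0.19, adjusted p = 0.00224), which edgeR did not call (0.07). Timeless (0.97, 1.69 and 0.63), H2afy (1.01, 0.48 and 0.14) and the DNA ligase gene Lig3 (0.32, 1.00 and 0.32) rose at all 3 times. Rnf146 rose at 4 h (0.42) and fell at 3 d (-0.20) in the authors' deposited tables. With edgeR, Timeless (0.04) and H2afy (0.07) were not called at 4 h, nor H2afy at 24 h (0.07) and 3 d (0.01). Lig3 (-0.61) and Rnf146 (-0.51) were called lower at 4 h with edgeR.

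Partners of ZAP and of interferon signalling were listed as well. Of 11 ZAP cofactors and RNA decay genes, 5 rose and 5 fell at 4 h, 6 and 4 at 24 h, and 5 and 3 at 3 d in the authors' deposited tables (4 and 6, 4 and 6, and 3 and 5 with edgeR). N4bp1, an endonuclease, stood at 2.48, 1.60 and 0.99, and the decapping gene Dcp1a at 2.45 at 4 h in the authors' deposited tables. Trim25, a ubiquitin ligase needed for ZAP activity, rose at all 3 times (1.15, 1.02 and 0.70). Khnyn, the nuclease that acts with ZAP, fell at all 3 times (-0.18, -0.47 and -0.45), as did the ZAP-like gene Zc3hav1l (-1.28, -1.85 and -0.44). The exosome subunit gene Exosc5 (-1.19 and -0.45) and the deadenylase gene Parn (-0.63 and -0.71) fell at 4 h and 24 h in the authors' deposited tables. Of 11 STAT, IRF and interferon receptor pathway genes, 10 rose and 1 fell at 4 h, 11 and 0 at 24 h, and 9 and 1 at 3 d in the authors' deposited tables (9 and 2, 8 and 1, and 7 and 1 with edgeR), with medians of 1.75, 1.29 and 0.40. Irf7 stood at 5.57, 6.19 and 4.03, and Ifnb1, interferon beta, at 8.90 ± 0.89, 5.65 ± 0.86 and 1.61 ± 0.48 in the authors' deposited tables. At 3 d edgeR gave 3.87 for Ifnb1, above the DESeq2 value, whereas over all tested genes edgeR stood a median of 0.13 lower. The SE of 0.48 belongs to the DESeq2 value and does not cover this gap, so the size of the Ifnb1 change at 3 d depends on the method. The cause of the gap was not tested. Stat6 was lower at 4 h (-0.65) and higher at 24 h (0.23) and 3 d (0.29). With edgeR its 24 h value was -0.18 in the authors' deposited table. Ifnar2, a chain of the interferon receptor, stood at 0.39, 0.36 and -0.18, and at -0.54, -0.053 and -0.31 with edgeR. Jak1 stood at 1.28, 0.39 and 0.15 in the authors' deposited tables. With edgeR Jak1 was called higher at 4 h (0.35), and not called at 24 h (-0.02) or 3 d (0.02, adjusted p = 0.694). These regulators were listed with earlier results of these data known.

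**Figure D4:**
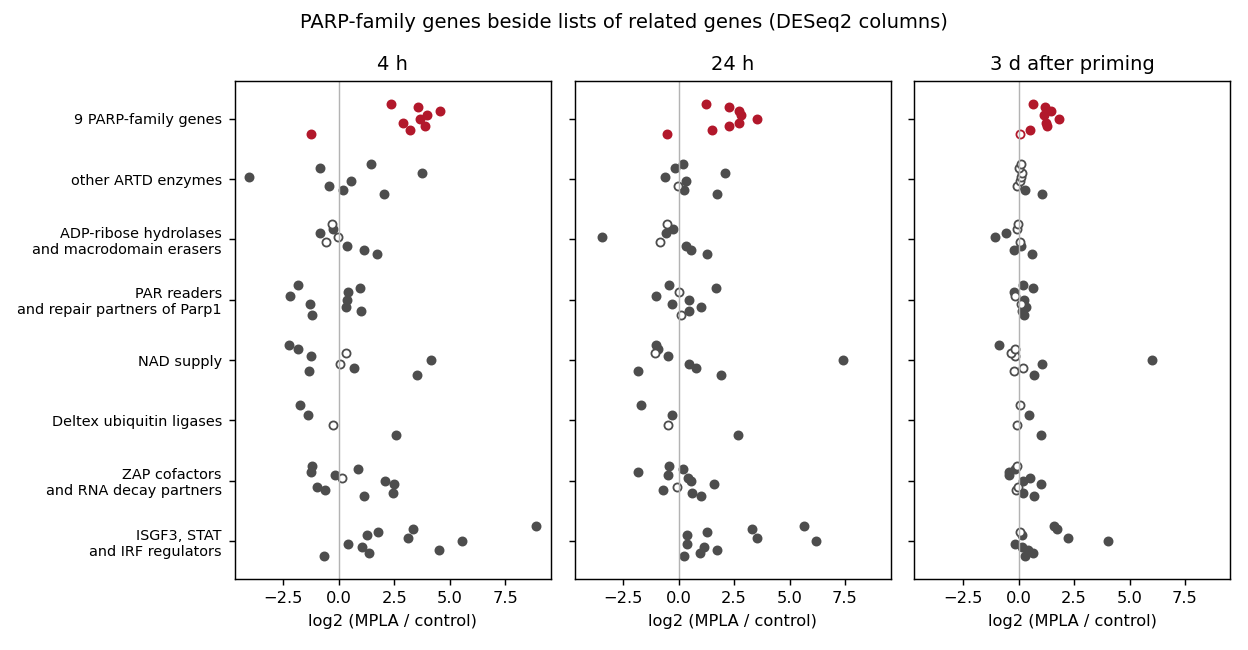
Log2 change, MPLA over control, of the 9 PARP-family genes (red) and of the genes on 7 related lists (grey) in each comparison; filled points are called at a DESeq2 adjusted p under 0.05, open points are not. The red points stand to the right of 0 except Parp1 at 4 h and 24 h, whereas most lists spread over both sides.

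Markers of macrophages and of other cells were read in the same tables. All 7 listed macrophage markers had reads in both groups in every one of the authors' deposited tables. Of these, 5 were called higher and 1 lower at 4 h, 3 and 4 at 24 h, and 4 and 3 at 3 d (2 and 5, 2 and 5, and 3 and 3 with edgeR). Adgre1 and Fcgr1 were higher and Csf1r was lower at each time, and Mertk and Lyz2 were lower at 24 h (-1.69 and -1.50) and 3 d (-0.71 and -1.43) in the authors' deposited tables. Of 5 stromal markers, 3 were called higher at 4 h, 2 at 24 h and 1 at 3 d in the authors' deposited tables, and none lower (3 and 1, 2 and 2, and 1 and 0 with edgeR). Dcn was called at each time, Lum at 4 h and 24 h and Pdgfra at 4 h, and all of these were listed at 0 in the controls. Their SEs at 4 h were wide (1.52 for Dcn, 1.53 for Lum and 1.45 for Pdgfra). At 3 d Dcn stood at 4.70, and at 9.81 with edgeR. Col1a2 (-1.75 and -1.88) and Col1a1 (-0.19 and -1.90) stood lower at 4 h and 24 h but were not called. With edgeR Col1a2 was called lower at 4 h (-2.81) and 24 h (-2.56), and Col1a1 at 24 h (-2.94). Of 5 dendritic cell markers, 3 were called higher at 4 h and 1 at 24 h, Xcr1 among them (3.93 and 3.08), while 1 was lower at 24 h and 1 at 3 d in the authors' deposited tables. With edgeR 1 was higher and 0 lower at 4 h, 1 and 2 at 24 h, and 0 and 2 at 3 d. Among neutrophil markers only Camp and S100a8 had an adjusted p. Camp was called higher at 24 h (3.49) and 3 d (1.43, and 2.97 with edgeR), and S100a8 was not called at any time. Cd4, the one T or NK cell marker with an adjusted p, was lower at 4 h (-0.91) and 24 h (-1.35) and higher at 3 d (1.01) in the authors' deposited tables. The B cell marker Cd79b was lower at 24 h (-1.54) and higher at 3 d (0.47), and Cpa3, a mast cell marker, was called lower at 24 h, where it was listed at 0 after MPLA. Levels are not known here, and the part of these markers in the results above was not tested.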

How the data were processed

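The values are 3 comparison tables, 1 per MPLA group against the same 3 control libraries, and hold no per-library values. Per the submitters' processing notes, bcl2fastq, TopHat2, HTSeq, edgeR, DESeq2 and DESeq were used on build mm10, without versions; counting settings and strand use are not given in the sources used here. Per the file headers, the authors computed log2 fold changes, p-values and adjusted p-values with DESeq2 and edgeR, an unscaled log2 ratio, and baySeq scores.

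The deposited sign was control over MPLA and was turned here; the order of the groups and Il6 and Nos2, strongly induced by lipid A, settled it. Count tests needed counts and were not run. A gene was called at the authors' DESeq2 adjusted p under 0.05, and NA was kept as not tested (17523, 16442 and 15111 tested genes at 4 h, 24 h and 3 d). SEs were computed as the log2 change over the normal quantile of its p-value; that quotient had medians of 0.10, 0.09 and 0.07 for tested genes with a log2 change under 0.05 and 0.12, 0.10 and 0.08 for those between 0.05 and 1. Intervals are 95%. Scripts (Python 3.11.15, scipy 1.17.1) were tested on simulated data. Gene coordinates are from GENCODE M21 (GRCm38). Depth is unknown.

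The members and lists were chosen with earlier results of these data known. The named genes are the members, from each list the 2 highest and 2 lowest called genes per time, and the 3 genes nearest to each member; neighbours on chromosome 16 were added by position after the values were seen. A few genes that this rule names are not reported here.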

Additional observations from a re-analysis of the deposited data

How the results depend on the processing

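The members' calls kept their direction and their side of the threshold at every time with the authors' edgeR columns, with all p-values adjusted without a filter, with baySeq, with all 3 methods together and at an adjusted p under 0.01; the uncalled 3 d value of Parp1 was -0.055 with edgeR. At a minimum of 2-fold, 9, 8 and 6 members were called at 4 h, 24 h and 3 d, against 9, 9 and 8. The members' unscaled ratios, which carry library depth, all moved from the DESeq2 values by more than their SE. Over tested genes, edgeR minus the unscaled ratio had medians of 0.22, 0.10 and -1.21 at 4 h, 24 h and 3 d. DESeq2 minus edgeR had medians of 0.93, 0.41 and 0.13. The part of depth in these shifts was not tested. Over the related lists, 53, 52 and 38 genes were called, against 35, 22 and 8 at 2-fold and, at 3 d, 19 both with baySeq and with all 3 methods. Of the 53, 52 and 38 called, 9, 8 and 1 had the opposite sign with edgeR at 4 h, 24 h and 3 d, and 12, 12 and 8 with the unscaled ratio. Among the list genes that the naming rule picks, called or not, directions turned with edgeR for Ifnar2 at 4 h (-0.54) and 24 h (-0.053), Stat6 at 24 h (-0.18), and Dtx3 (-0.090) and Parg (-0.0030) at 3 d. With the unscaled ratio they turned for H2afy (-0.14), Ifnar2 (-0.76) and Timeless (-0.17) at 4 h, Ifnar2 (-0.15) and Stat6 (-0.28) at 24 h, and Dtx1 (1.00), Ifnar2 (0.90), Khnyn (0.64), Nmrk1 (0.21), Oard1 (0.50), Rnf146 (0.86) and Zc3hav1l (0.64) at 3 d. Over all genes, DESeq2 called 5579 higher and 5438 lower at 4 h, 5331 and 5293 at 24 h, and 4456 and 3892 at 3 d, against 2949 and 10965, 3551 and 9154, and 3611 and 6450 with edgeR. Counts moved by over 1.5 times also at 3 d with baySeq (2697 and 1126), with all 3 methods together (2909 higher at 4 h, 3418 at 24 h, 2635 and 1086 at 3 d) and at 2-fold (3172 and 3243, 2106 and 2699, 964 and 786). The causes were not tested. No paired analysis was possible because the tables hold no values per library, and for the same reason no library could be left out. The files give no depth, so the precision of low-count genes cannot be judged beyond the SE.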

Other observations

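NAD supply and the Deltex ligases, which bear on the substrate of PARP enzymes and on the family of Dtx3l, were also read. Of 9 listed NAD genes, 3 rose and 4 fell at 4 h, 4 and 4 at 24 h, and 3 and 1 at 3 d in the authors' deposited tables (2 and 6, 3 and 4, and 3 and 4 with edgeR). Cd38, an NAD-consuming ectoenzyme, had log2 changes of 4.14 ± 0.30, 7.42 ± 0.24 and 6.03 ± 0.21 at 4 h, 24 h and 3 d in the authors' deposited tables. Nampt, the rate-limiting enzyme of NAD salvage, stood at 3.55, 1.90 and 0.71, and the NAD kinase gene Nadk at 0.03 (not called), 0.48 and 1.06. With edgeR Nadk was called lower at 4 h (-0.90) and not called at 24 h (0.07). Nmrk1 fell at all times (-2.25, -1.01 and -0.87) in the authors' deposited tables. Nmnat3 (-1.84 and -0.92) and Naprt (-1.33 and -1.86) fell at 4 h and 24 h. Among the 4 other Deltex genes, Dtx2 rose at all times (2.56, 2.69 and 0.99), Dtx3 was lower at 4 h (-1.73) and 24 h (-1.72) and not called at 3 d (0.04), and Dtx4 stood at -1.38 at 4 h, -0.29 at 24 h and 0.47 at 3 d, while Dtx1 had no adjusted p in the authors' deposited tables.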
